A study of Mus musculus with 6 samples.

Results

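The genes described here are Atf4 and 9 genes of the amino acid stress response that its protein is known to switch on: Asns, Trib3, Chac1, Psph, Psat1, Phgdh, Cth, Pck2 and Ddit3. They were taken by gene symbol from the platform annotation, which gave 1 probe for each, so 10 of the 23473 probes and 10 of the 19321 named genes on the array. The set was put together with the difference between the 2 groups of these same arrays in view, so the members were chosen by their Cre minus control differences in part, and those differences are given below as a description, with no test. All 10 probes lay above background on all 6 arrays.

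The cells were cultured astrocytes from the cortex of newborn C57BL/6J mice whose Chd7 alleles carry loxP sites (Chd7flox/flox). Of the 6 arrays, 3 held cells given a Cre lentivirus, which cuts out the flanked part of Chd7 and is titled Chd7 KD, and 3 held cells of the same genotype given a control lentivirus. Serum (10% FBS), the growth factors EGF and FGF2, and B-27 were in the medium of both groups, which were harvested 3 days after infection. Cre was present in no control culture, so what Cre does by itself and what losing Chd7 does cannot be told apart, and the labels do not say whether replicates came from separate cultures or animals.

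ATF4 is a transcription factor of the integrated stress response. When amino acids run short, the endoplasmic reticulum fills with unfolded protein, haem is lacking or viral RNA is sensed, 1 of several kinases phosphorylates the initiation factor eIF2, general translation slows, and Atf4 mRNA is translated more. ATF4 then pairs with C/EBP or other partners at composite DNA elements and switches on genes that make, import and charge amino acids. In the brain, astrocytes are the main makers of serine, which they supply to neurons.

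Stretches of the RefSeq promoters (GRCm38.p6) are shown for the 3 genes in which the C/EBP-ATF composite element was matched upstream of the start, since this is the DNA element through which ATF4 acts. The letters searched were TGATGNAA on both strands, and capitals mark the match. Each is printed 5′ to 3′ on the strand of the gene. The Asns stretch is from chr6:7693210-7693278 (minus strand), the Chac1 stretch from chr2:119351003-119351102 (plus strand) and the Pck2 stretch from chr14:55540117-55540216 (plus strand).
Asns: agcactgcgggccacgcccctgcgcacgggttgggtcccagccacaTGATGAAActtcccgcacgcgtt
Chac1: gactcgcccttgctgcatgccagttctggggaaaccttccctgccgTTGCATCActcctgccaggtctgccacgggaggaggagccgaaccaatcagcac
Pck2: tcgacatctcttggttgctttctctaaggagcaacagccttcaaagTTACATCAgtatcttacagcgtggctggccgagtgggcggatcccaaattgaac

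The Asns match began 23 bases before the start, on the strand of the gene. The matches of Chac1, 193 bases before the start, and of Pck2, 103 bases before it, were on the other strand. Trib3 also held a match, after its start. Windows of 250 bases before and 50 after the start were on hand for 9 of the 10 genes (10 windows, since Psat1 has a pair). The letters were held by 4 of the 9 genes, and by 4 of the 10 windows, against 3.97% of all 32851 promoter windows. The stricter TGATGCAA, searched the same way and contained in the first motif, was present in 1 of the 9 (Chac1) and in 0.895% of all windows. Windows of Atf4, Ddit3, Phgdh, Psat1 and Psph held no match, and sequence outside the windows was not searched.

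Chd7, as the check of the labels, read 7.67 ± 0.58 in Cre and 59 ± 26.1 in control cultures (SD, n = 3 each) in the authors' processed linear intensities by its brighter probe, a log2 difference of -1.13 (SE 0.16). Its other probe, nearer to background, read 8.67 ± 2.52 in Cre and 12.67 ± 1.53 in control cultures (SD, n = 3 each), a log2 difference of -0.11 (SE 0.06). The 12 astrocyte markers all lay above background on all 6 arrays. The same was true of all 8 neuron, 7 oligodendrocyte lineage and 7 fibroblast and mural markers, and of 12 of 14 microglia markers. Being above background therefore does not set astrocytes apart here. All 3 Cre arrays had fewer probes above background (82.8 to 87.0%) than the control arrays (87.4 to 90.7%). Array number limits the precision. In the limma fit, 0 of 20540 probes, the 10 genes included, passed an adjusted p of 0.05 (0%), the smallest adjusted p was 0.405, and 1153 probes (5.61%) lay at an unadjusted p under 0.05. With the replicate number as a block 0 probes passed as well, and 1918 (9.34%) lay under that unadjusted limit.

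Across the set, 9 of the 10 genes averaged lower in Cre than in control cultures (10 with median scaling or in the authors' values, 8 with the local background column), with a median log2 difference of -0.54, beside -0.001 over all probes. On this log2 scale, intensities were corrected against blank spots and quantile normalised, and a difference is Cre minus control. Asns had the lowest difference at -0.86 and Phgdh the highest at 0.04. In 8 genes all 3 same-numbered pairs were lower in Cre, but the share of all probes that did so was not counted. A log2 difference of -0.5 or lower was measured for 7 of the 10 genes, and for 50 of all 20540 probes (0.243%). The Cre arrays lay wholly below the control arrays for 6 of the 10, where 5.31% of all probes did so. These shares describe how the genes were chosen and carry no test.

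In the authors' linear values the Cre arrays read low in general. Over the 5825 probes with a mean of at least 100, the median was 88.0% of the control value. For the 10 genes the median was 57.4%, and by that scale the groups did not overlap, with Cre lower, for 7 of the 10, against 12.4% of the 18697 probes that, like these genes, had a value and lay above background on every array. A value at least 1.5-fold lower in Cre in all 3 pairs was found for 6 of the 10, against 0.888% of those probes. Linear values below are the authors' processed intensities.

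**Figure D1:**
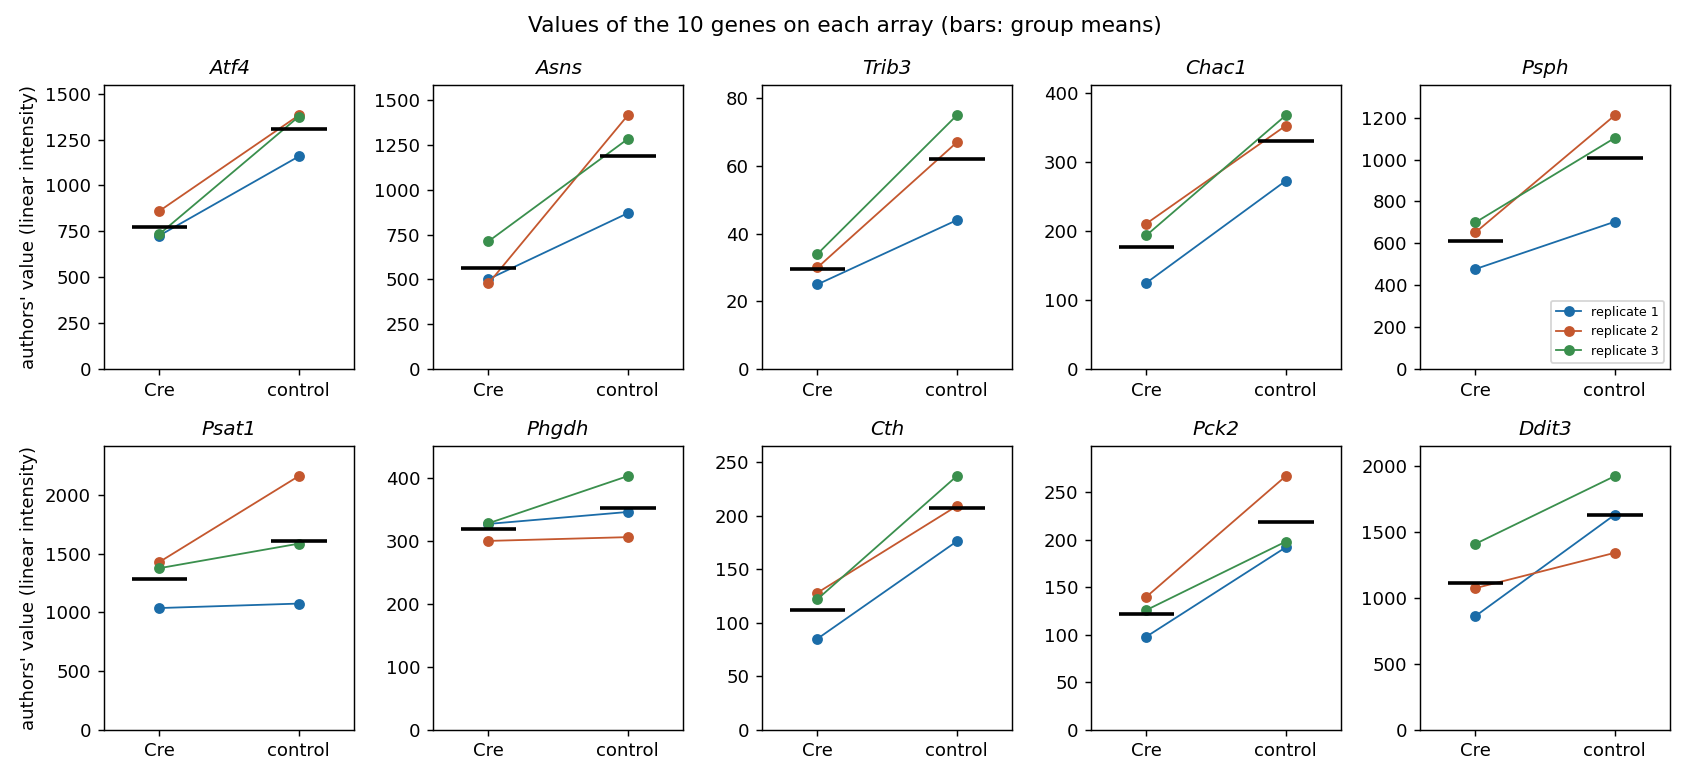
The authors' linear intensity of each of the 10 genes on every array, with Cre on the left and control on the right of each panel, lines joining same-numbered arrays and black bars for group means (n = 3). The Cre points lie below every control point for Atf4, Asns, Trib3, Chac1, Psph, Cth and Pck2, and overlap the control points for Psat1, Phgdh and Ddit3.

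Among the regulators, Atf4 itself read 727, 861 and 735 on the Cre arrays 1 to 3, against 1158, 1382 and 1375 on the control arrays. The groups were well apart, and the Cre mean was 59.3% of the control mean. On the log2 scale the difference was -0.56 (SE 0.12), with pairs at -0.66, -0.35 and -0.68. The SD on that scale was 0.23 among Cre and 0.04 among control arrays, with Cre replicate 2 the highest of its group.

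Ddit3 encodes CHOP, a transcription factor that ATF4 induces and that favours cell death when stress lasts. It read 862, 1074 and 1410 on the Cre arrays, against 1631, 1342 and 1924 on the control arrays. The groups overlapped, because Cre replicate 3 exceeded control replicate 2. The log2 difference was -0.39 (SE 0.21), made up of pairs at -0.92, -0.02 and -0.22, so that pair 1 carried most of it.

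Trib3 is a pseudokinase that ATF4 and CHOP induce and that binds ATF4 and damps it. Its signal lay nearest to background, at 25, 30 and 34 on the Cre arrays, against 44, 67 and 75 on the control arrays. No Cre value reached a control value, and the Cre mean was 47.8% of the control mean. The log2 difference was -0.53 (SE 0.13), and its size depended on how background was removed, from -0.89 with plain subtraction of the blank mean to -0.35 with the local background column.

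Of the enzymes, Asns makes asparagine from aspartate and glutamine, and it stood lowest of the 10 in Cre relative to control. Its values were 501, 477 and 712 on the Cre arrays, against 869, 1415 and 1283 on the control arrays. All Cre values were below all control values, at 47.4% of the control mean. The log2 difference was -0.86 (SE 0.18), with pairs at -0.77, -1.18 and -0.64.

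The 3 enzymes that make serine from a glycolytic intermediate had differences from near 0 (Phgdh, Psat1) down to -0.52 (Psph). Phgdh, which takes the first step, read 327, 300 and 328 on the Cre arrays, against 346, 306 and 403 on the control arrays. Those values overlapped, and the log2 difference was 0.04 (SE 0.13, 95% interval -0.27 to 0.36), with pair 2 at 0.38 and the other two below 0. Its sign turned to -0.02 with median scaling, -0.13 in the authors' values and -0.10 without control replicate 2. Its mean was 90.5% of the control mean, close to the 88.0% of bright probes in general.

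Psat1, the transaminase of the second step, read 1037, 1430 and 1377 on the Cre arrays, against 1075, 2162 and 1586 on the control arrays. Replicate 1 was the lowest array of each group, and the spread within the control group exceeded the distance between the groups. The log2 difference was -0.12 (SE 0.26, 95% interval -0.76 to 0.53). By pair it was -0.08, -0.29 and 0.02. Without control replicate 2 the log2 difference was 0.11, and without Cre replicate 1 it was 0.06. Its sign changed in both settings, but each kept the same-numbered partner of the array left out.

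Psph, the phosphatase that releases serine in the last step, read 477, 652 and 700 on the Cre arrays, against 703, 1211 and 1103 on the control arrays. The highest Cre and the lowest control value nearly touched, and on the log2 scale they overlapped. Even so the pairs were close to each other, at -0.55, -0.54 and -0.47, with a mean difference of -0.52 (SE 0.22). Psat1 and Psph shared a low replicate 1 in both groups. Whether the 3 serine enzymes differ from each other was not tested.

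Cysteine and glutathione are handled by Cth and Chac1. Cth, the last enzyme of the route from methionine to cysteine, read 85, 128 and 122 on the Cre arrays, against 176, 209 and 237 on the control arrays. Values did not overlap, at 53.9% of the control mean, and the log2 difference was -0.61 (SE 0.18). Chac1, which breaks glutathione down, read 125, 211 and 194 on the Cre arrays, against 273, 353 and 368 on the control arrays. It too showed no overlap, at 53.3% of the control mean, with a log2 difference of -0.67 (SE 0.21). In both genes pair 2 had the smallest difference, at -0.23 for Cth and -0.28 for Chac1, and pair 1 the largest.

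Pck2, the mitochondrial enzyme that makes phosphoenolpyruvate, read 98, 140 and 126 on the Cre arrays, against 192, 267 and 198 on the control arrays. Again no Cre value reached a control value, and the mean was 55.4% of the control mean. The log2 difference was -0.57 (SE 0.16), with pairs at -0.83, -0.42 and -0.46.

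**Figure D2:**
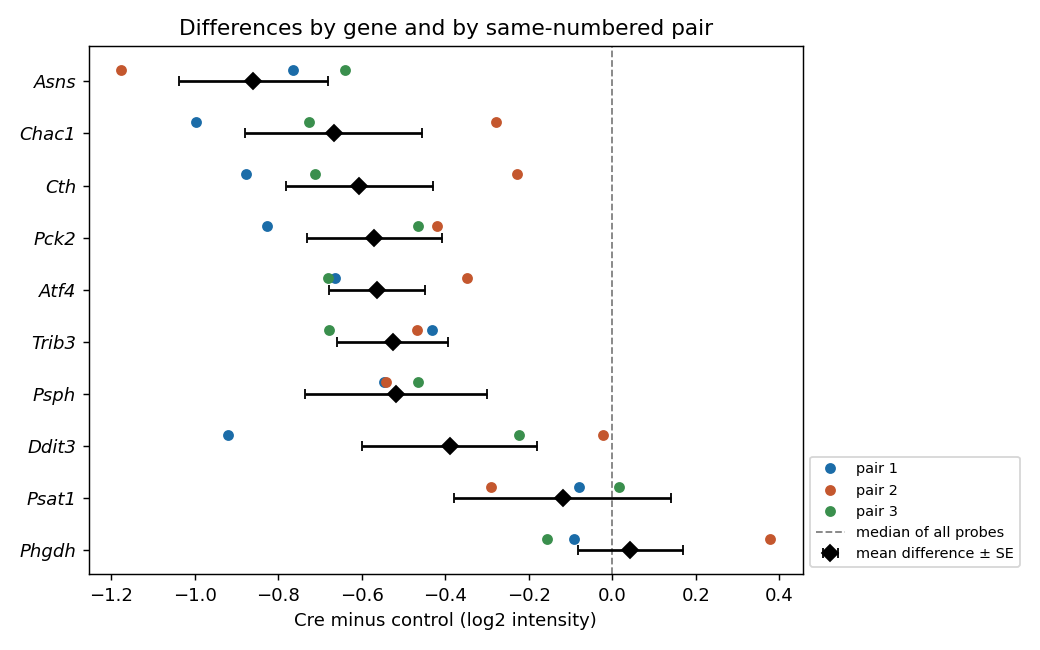
Log2 difference, Cre minus control, of each gene: black diamonds with bars give the mean and SE (n = 3 per group), coloured points the same-numbered pairs, and the dashed line the median of all probes. The mean lies at -0.5 or lower for 7 genes, and Ddit3, Psat1 and Phgdh stand nearer to 0, Ddit3 with widely spaced pairs.

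Same-numbered arrays deviated together over all probes (correlations 0.498, 0.425 and 0.436), so the pairs are read as such. By pair, the median log2 difference of the set was -0.71, -0.32 and -0.55. All 10 genes were lower in Cre in pair 1, 9 in pair 2 and 9 in pair 3, with no share of all probes counted beside these. In the authors' values the pair medians were closer together, at 57.2, 60.5 and 59.5% of control, while bright probes in general stood at 100, 76.6 and 90.7% in those pairs.

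Variation inside the groups also ran in common, but it is not independent of the choice of genes. A low Cre array lowers the Cre mean, and so the difference in view when the genes were chosen. The shares that follow are a description with no test. Cre replicate 1 had the lowest log2 value of the Cre arrays for 10 of 10 genes, where it was lowest for 35.3% of all probes. For Phgdh the margin was small, at 9.251 against 9.254 on Cre replicate 3. Control replicate 1 was the lowest control array for 6 of 10 genes, against 29.6% of all probes, and for those 6 genes (Atf4, Asns, Trib3, Chac1, Psph and Psat1) replicate 1 was lowest in both groups, against 13.6% of all probes. The median distance of Cre replicate 1 from the mean of the other two Cre arrays was -0.48 on the log2 scale, and that of control replicate 1 from its group was -0.15. In the authors' values, Cre replicate 1 was the lowest of its group for 8 of the 10 genes, against 29.1% of all probes, and control replicate 1 for 8 of the 10, against 48.1% of all probes. Without Cre replicate 1, the median difference of the set was -0.43, with 8 of 10 genes lower.

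Genes nearest to the Atf4 profile over the 6 arrays were sought among the 15726 other genes above background on every array. Nearness was the root mean square difference of log2 values after each probe's own mean was taken off. The 5 nearest were the linker histone gene H1f2 at 0.086 log2 units, the reductase gene Cyb5r1 at 0.095, Pck2 at 0.104, the transcription factor gene Tgif1 at 0.110 and the neurexin gene Nrxn2 at 0.124. This measure holds the Cre minus control difference by which the set was partly chosen, so the ranks of its members are a description only. Cth stood at rank 21, Trib3 at 45, Chac1 at 89, Psph at 293, Ddit3 at 2771, Asns at 3962, Psat1 at 9786 and Phgdh at 11651. Asns had its largest difference in pair 2, where Atf4 had its smallest.

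Other known ATF4 and stress response targets stood closer to 0 than the 10 genes, with 14 of 19 measured genes lower in Cre, 5 higher and a median of -0.10. Some of them were dim, such as Fgf21 at 2 to 5 and Stc2 at 9 to 18, and the offset compresses differences of dim probes. The 10 genes were also chosen in part by their differences, so the medians are not set side by side on equal terms. In the limma fit 0 of the 19 passed over all probes, in either direction. Taken without adjustment, at p under 0.05 (by unadjusted p, below), 4 were lower and 1 higher, where 2.85% of all probes were lower and 2.77% higher. Ddit4, a stress-induced inhibitor of mTORC1, had the largest difference and in the other direction, at 0.52 (SE 0.14). It read 247, 167 and 263 on the Cre arrays, against 134, 168 and 196 on the control arrays, so that in linear values Cre replicate 2 lay below control replicates 2 and 3, while the log2 values did not overlap. Nupr1, a stress-induced chromatin protein, stood at -0.45 (SE 0.37) and the lipoprotein receptor gene Vldlr at -0.42 (SE 0.31), both with overlapping groups.

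Genes upstream of ATF4 were spread around 0. Of 15 measured genes for eIF2 kinases, eIF2, eIF2B and related factors, 5 were lower and 10 higher in Cre, with a median of 0.02. In limma 0 passed over all probes (1 lower and 1 higher by unadjusted p). The related factors were Gcn1, Impact, Ppp1r15b and Eif2a, of which Gcn1 read only 2 to 3 on the arrays. Eif2s1, also an eIF2 subunit gene, was not on the array annotation. The kinase genes themselves lay between -0.02 for Eif2ak2, which senses viral RNA, and 0.18 for Eif2ak3, which senses unfolded protein. The largest differences of the list were those of the eIF2 subunit genes Eif2s3x at 0.56 (SE 0.18) and Eif2s2 at -0.23 (SE 0.08) and of the exchange factor gene Eif2b2 at 0.28 (SE 0.15). mRNA arrays do not measure eIF2 phosphorylation or ATF4 protein.

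In serine, glycine and one-carbon metabolism, 7 of 14 measured genes were lower and 7 higher, with a median of -0.02, and 0 passed in limma over all probes (1 lower and 1 higher by unadjusted p). The mitochondrial enzymes Shmt2, which turns serine into glycine, and Mthfd2, which oxidises the carbon unit so released, stood at -0.45 (SE 0.28) and -0.44 (SE 0.22). Mthfd2 read 161, 260 and 267 on the Cre arrays, against 296, 428 and 356 on the control arrays. Those Mthfd2 values did not overlap. Aldh1l1, a folate enzyme that is also an astrocyte marker, stood at 0.72 (SE 0.17), the farthest from 0 in this list.

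Of 18 measured proline, asparagine, glutamate and transsulfuration enzymes, 8 were lower and 10 higher, with a median of 0.02, and 0 passed in limma over all probes (3 lower and 1 higher by unadjusted p). Pycr3 (Pycrl in the annotation), which makes proline, stood at -0.49 (SE 0.14) and Bcat1, which takes the amino group from branched-chain amino acids, at -0.42 (SE 0.06). Bcat1 was dim, at 36, 28 and 36 on the Cre arrays, against 58, 58 and 62 on the control arrays. Its groups were apart with little spread in either. Gclm, a subunit of the enzyme that starts glutathione synthesis, stood at -0.26 (SE 0.25).

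Cytosolic aminoacyl-tRNA synthetases, which charge tRNAs, had 11 of 19 measured genes lower and 8 higher, with a median of -0.04. The lowest 3 were Eprs1 at -0.27 (SE 0.20), Iars1 at -0.26 (SE 0.18) and Lars1 at -0.26 (SE 0.10). In limma 0 passed over all probes, with 2 lower and 1 higher by unadjusted p. Amino acid transporters had 8 of 11 lower and 3 higher, with a median of -0.02, and again 0 passed in limma over all probes (2 lower and 0 higher by unadjusted p). Among them the cationic amino acid carrier Slc7a3 stood at -0.57 (SE 0.23), the cystine carrier Slc7a11 at -0.38 (SE 0.12) and the leucine carrier Slc7a5 at -0.35 (SE 0.26). Slc7a11, Slc7a5 and Slc3a2 are also in the list of other ATF4 and stress response targets, as is the synthetase gene Nars1. They are counted in each of their lists.

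Folding genes of the endoplasmic reticulum, which mainly answer to ATF6 and XBP1, lay on the other side of 0: 15 of 19 were higher in Cre and 4 lower, with a median of 0.08, although in the authors' values, where the median of all probes was -0.08, that of the list was -0.045. In limma 0 passed over all probes, and by unadjusted p there were 3 higher and 0 lower. Those with the largest differences were Sel1l, of the machinery that exports misfolded proteins, at 0.45 (SE 0.10), the disulfide isomerase gene Pdia4 at 0.32 (SE 0.07) and the co-chaperone gene Dnajc3 at 0.30 (SE 0.05). Hspa5, the main chaperone of this compartment, stood at 0.06 (SE 0.11).

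**Figure D3:**
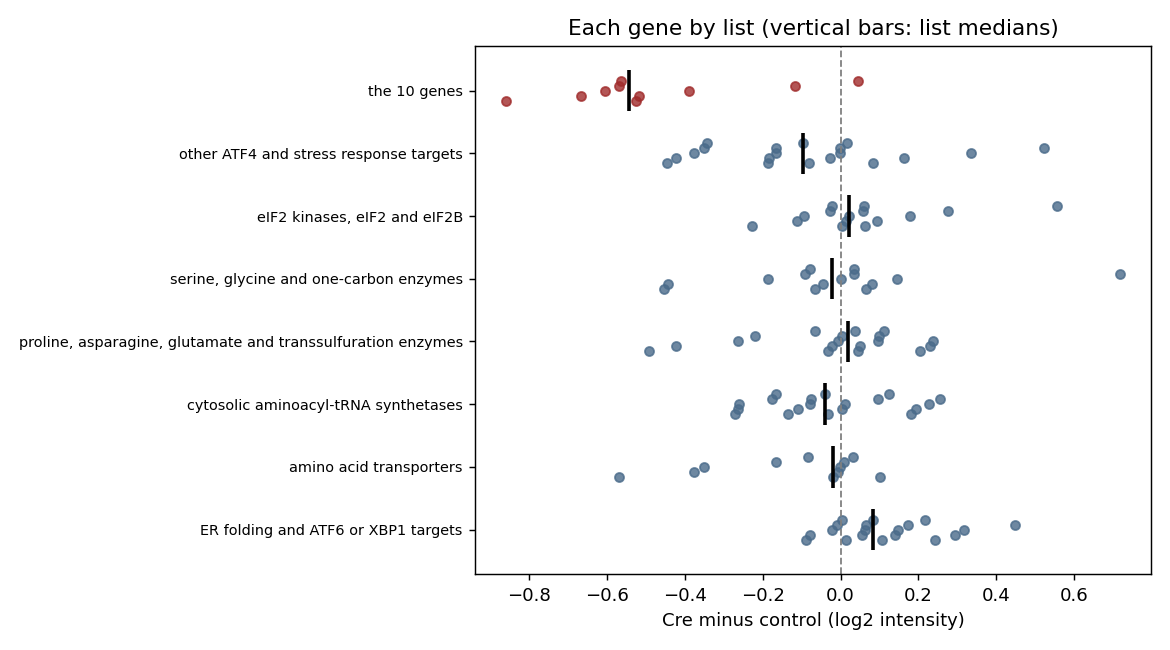
Log2 difference, Cre minus control, of every measured gene (points) of the 10 genes and of 7 related lists, with list medians as vertical bars. The median of the 10 genes, chosen with this contrast in view, lies at -0.54, and those of the other lists lie between -0.10 and 0.08.

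Marker levels of other cells moved with the groups in part. The summed linear intensity of 14 microglia markers was 319 to 416 in Cre and 427 to 483 in control cultures, with Itgam empty on at least 1 array and 10 of 13 measured markers lower. Named after their values were seen, the complement genes C1qa and C1qb stood at -0.67 (SE 0.11) and -0.71 (SE 0.17), within the range of the 10 genes, and the lysosomal gene Cd68 at 0.48 (SE 0.08). Cd68 was 1 of 3 measured markers higher in Cre, at 156 to 193 against 121 to 134 in control cultures. With Cd68 left out after its value was seen, the other measured markers summed to 155 to 223 in Cre and 295 to 362 in control cultures. Of the 12 astrocyte markers, 11 were higher in Cre, with a median log2 difference of 0.24 (5 higher and 0 lower by unadjusted p, 0 past the adjusted threshold in limma), and their linear sums overlapped, at 6739 to 8549 in Cre and 5074 to 8901 in control cultures. Fibroblast and mural markers (7 genes) summed to 5710 to 8893 in Cre and 6116 to 10138 in control cultures, and neuron markers (8 genes) to 383 to 493 in Cre and 449 to 614 in control cultures. Oligodendrocyte lineage markers (7 genes) summed to 627 to 859 in Cre and 626 to 1066 in control cultures, and endothelial markers (5 genes) to 31 to 99 in Cre and 38 to 151 in control cultures, with Pecam1, Cldn5 and Tek empty on at least 1 array. The part of these cells in the levels of the 10 genes was not tested, and in bulk RNA fewer cells of a type and less RNA per cell cannot be told apart.

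The scanner's local background was itself unequal between the groups, to a differing degree among the 10 genes. For Psph it averaged 90.1% of the spot signal on Cre and 32.0% on control arrays, and for Atf4 57.5% on Cre and 16.2% on control arrays. The gap between averages was smaller for Asns (75.3% on Cre, 65.4% on control arrays) and Phgdh (75.0% and 61.1%). Single arrays differed more, with Asns at 42.2% on Cre replicate 1 and 104.6% on Cre replicate 2. On Cre replicate 2 the local background also exceeded the spot signal for Ddit3 (102.6%) and Psat1 (100.1%). The median over all probes kept was 84.0% on Cre and 73.9% on control arrays, and 94.6% on Cre replicate 2. With that column as the background, the difference of Psph was -2.41, that of Ddit3 -1.53 and that of Psat1 -1.11, whereas Atf4 stood at -0.37, Cth at -0.11 and Pck2 at 0.03. The median of the set was -0.54 with that setting, with 8 of 10 genes lower.

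**Figure D4:**
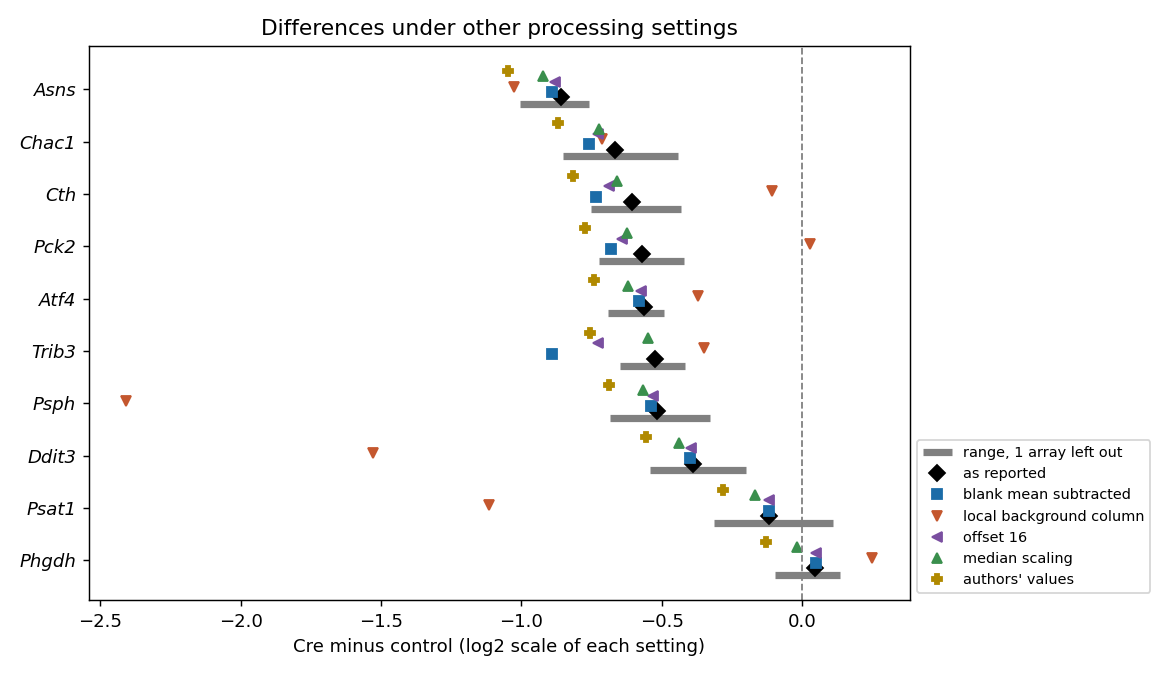
Log2 difference, Cre minus control, of each gene under the settings run: black diamonds as reported, other symbols for other background corrections, median scaling and the authors' values, and grey bars for the range when 1 array was left out. Apart from the local background column, the symbols of most genes lie close together, while those of Trib3 spread from -0.89 to -0.53. The local background column lies far to the left for Psph, Ddit3 and Psat1. It lies to the right for Atf4, Trib3, Phgdh, Cth and Pck2.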

How the data were processed

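Total RNA of 6 samples was amplified, labelled with Cy5 and hybridised to 1-colour arrays, per the labels' protocols. Deposited scanner files give intensities, a spot median and a local background median, not subtracted, per the file headers. A second file of the authors has processed linear intensities, scaled so that every array has a median of 25, with 1609 to 3178 empty cells per array; the steps behind it are not given in the sources used here. All columns of values matched a sample.

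Spot medians were corrected with limma 3.58.1 in R 4.3.3 (normexp against 2736 blank spots, offset 50), log2 transformed and quantile normalised. Spots marked by the scanner (0 to 9 per array) were left out. The offset compresses differences of dim probes. The 20540 probes above the blank mean by 2 SD on at least 3 arrays were fitted with limma (two-sided, Benjamini-Hochberg over all of them, threshold 0.05). With no separate cultures or animals named, p-values cover sample-to-sample spread only, which could be technical.

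Of the 23473 probes, 20690 had 1 symbol, 0 several and 2783 none here; 20556 matched RefSeq's table for GRCm38.p6, which also supplied the promoters. The brightest probe stood for a gene. All 10 genes, the 3 largest differences of each list, and the 5 profiles nearest to Atf4 are named, and some other list genes were chosen after their values were seen. The 10 genes and the lists were chosen with earlier results of these data known. Of 129 list entries, 115 were measured. Replicate numbers are shared by both groups. The correlation of deviations from group means was 0.498, 0.425 and 0.436 for same-numbered arrays and -0.373 to -0.167 for others. Deviations cancel out within a group, so positive values for same-numbered arrays push the others below 0, which are not separate evidence. The numbers were taken to pair the arrays because of the same-numbered correlations. What those arrays shared was not tested, and the labels name no shared litter, culture or day.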

Additional observations from a re-analysis of the deposited data

How the results depend on the processing

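The median of the 10 genes was -0.54 as reported and between -0.66 and -0.43 with 1 array left out; it was -0.75 in the authors' values (log2 of the value plus 16), where the median of all probes was -0.08. Of 140 values of single genes under the alternatives, 134 kept their sign. The other 6 were of Psat1, Phgdh and Pck2, the last at 0.026 with the local background column. Settings that only changed the probe filter or added the replicate block left each difference as it was. Their values are among the 140 and could not change sign. The median of the endoplasmic reticulum folding list was 0.08 as reported and -0.045 in the authors' values. The SEs above come from the fit without a replicate block. With the block the SE of Psph was 0.04 instead of 0.22 and that of Psat1 0.07 instead of 0.26. That of Trib3 was 0.07 instead of 0.13, while those of Phgdh (0.13) and Ddit3 (0.20 instead of 0.21) hardly changed. With the replicate number as a block, differences were the same, 0 probes (0%) passed in limma (smallest adjusted p 0.391), and 1918 (9.34%) lay at an unadjusted p under 0.05 against 1153 without it. That count was 615 with median scaling, 1851 in the authors' values and 854 to 1379 with 1 array left out; the count past the adjusted threshold was 0 in every setting run. Genes that are in more than 1 of the 7 lists are counted once in the following. Over the 7 lists, genes lower at an unadjusted p under 0.05 numbered 11 as reported, 6 with plain subtraction of the blank mean, 7 with the local background column, 18 in the authors' values and 4 to 10 with 1 array left out (5 without Cre replicate 1, 4 without Cre replicate 3, 6 without control replicate 2 and 7 without control replicate 3). Genes higher numbered 8 as reported, 5 with plain subtraction, 5 with the local background column, 1 in the authors' values, 13 with the replicate block and 5 (without Cre replicate 3) to 12 with 1 array left out. The cause of these shifts was not tested. Averaging several probes of a gene was not run, since each of the 10 genes has 1 probe.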
